A study of Mus musculus with 5 samples.

Results

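The genes of the tumour necrosis factor (TNF) superfamily, of its receptors and of the TRAF adaptors were followed in mouse common myeloid progenitors that lack or keep the histone methyltransferase gene Mll1. The members were taken by name: every row of the expression files whose gene name begins with Tnfrsf or Tnfsf and a digit, the adaptor genes Traf1 to Traf7, and Cd27, Cd40, Fas, Ltbr, Ngfr, Eda2r, Tnf, Lta, Ltb, Fasl, Cd70 and Cd40lg. This gave 49 of 31626 genes, made up of 26 receptors, 16 ligands and 7 adaptors. The cells were C57Bl/6 common myeloid progenitors with floxed Mll1 alleles, transformed by a retrovirus that carries the leukaemia gene MN1 and GFP, and grown in semi-solid medium with IL3, IL6 and SCF. The 2 Mll1 knockout libraries (Mll1 -/-) came from cells transduced with Cre, and the 3 control libraries (Mll1 flox/flox) from cells transduced with a control, all sorted at day 7. MN1, the growth factors and the retroviral transduction were thus shared by both groups, and no library of Cre-treated cells with wild type Mll1 was analysed here, so that Cre and loss of Mll1 cannot be told apart. Nothing in the labels ties the replicates to separate mice or cultures, so each p-value reflects the spread among these 5 samples, which may be technical.

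Receptors of this family bind trimeric ligands at the cell surface and pass the signal on through TRAF adaptors, which lead to NF-kB and the MAP kinases JNK and p38, or through a death domain, which recruits FADD and caspase-8 and can kill the cell. TNF and TRAIL are the best known ligands of the death-domain branch, and CD27, 4-1BB, OX40 and GITR are costimulatory receptors of lymphocytes. In blood progenitors CD27 is used as a surface marker of multipotent and lymphoid-primed stages, and MLL1 binds unmethylated CG dinucleotides through its CXXC domain.

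The data are FPKM values (fragment counts that the authors scaled by gene length and by library depth), so absolute depth is unknown. By the commonest ratio of values among low genes, 1 read was worth 0.98 to 1.018 times as much in the other 4 libraries as in control replicate 1. Only ratios near equality were searched, so a large difference could not have shown. The targeted gene Mll1 stood at 6.22 and 5.32 FPKM in the knockout libraries and at 9.67, 7.28 and 7.19 FPKM in the controls, with no overlap (two-sided exact permutation p = 0.1, the smallest that 10 splits allow; limma adjusted p = 0.158). The labels do not state which exons were floxed, and a value summed over all exons may miss their loss. Of 8 markers of myeloid progenitors, 3 rose (Fcgr3, Spi1 and Mpo) and 2 fell (Cd34 and Flt3), and Kit, Cd34, Cebpa, Myb and Mpo were above 50 FPKM in every library. The lymphocyte markers Cd3g, Cd8a, Pax5 and Ncr1 were listed at 0 in all 5 libraries. The 7 T cell markers summed to 8.88 and 9.37 FPKM in the knockouts and to 9.18, 11.2 and 9.95 FPKM in the controls, nearly all of it from Lck and Cd247. The 6 B cell markers summed to at most 1.87 FPKM and the 4 NK cell markers to at most 0.341 FPKM in any library. Control replicate 1 stood apart from the other controls: the summed level of 8 neutrophil markers was 22398 and 20666 FPKM in the knockouts, and 6394, 789 and 1050 FPKM in control replicates 1, 2 and 3. S100a8 and S100a9 made up nearly all of this sum in the knockouts, with 11794 and 10986 FPKM for S100a8 and 10186 and 9271 FPKM for S100a9. Camp, Ngp and Ltf were higher in control replicate 1 than in either knockout, and Ngp stood at 64.7 and 58.3 FPKM in the knockouts and at 106, 4.05 and 4.52 FPKM in the controls. Mmp8 was lower in both knockouts and in control replicate 1 than in the other controls. Of the neutrophil markers 1 was called, Lcn2, which rose. Of the 7 monocyte and macrophage markers 2 fell (Ccr2 and Irf8), with sums of 356 and 323 FPKM in the knockouts and 359, 106 and 89.7 FPKM in the controls. Of the 5 mast cell and basophil markers 1 rose (Mcpt8), and of the 5 erythroid markers 2 rose (Klf1 and Alas2). Among the 5 dendritic and the 5 megakaryocyte markers limma called 0, with 1 of each at an unadjusted p under 0.05. Over all genes, 3511 of the 11780 tested were at such a p, and 9.79% were called at an adjusted p under 0.05. In bulk RNA a change in the share of cells of 1 type and a change of RNA per cell cannot be told apart.

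Changes were tested with limma on log2(FPKM + 1) over the 11780 genes that reached 1 FPKM in 2 or more libraries, and genes with an adjusted p under 0.05 were called. This scale understates the change of low genes. Of the 49 members, 27 were tested, and 5 of these were called: Tnfrsf1a, Tnfrsf10b and Tnfrsf26 rose and Cd27 and Tnfsf10 fell. Over all genes tested, 9.79% were called, 3.82% higher and 5.97% lower in the knockout libraries. In 12 tested members both knockout values lay above all controls and in 6 both lay below, against 22.9% and 29.4% of all genes tested. The median log2 change was 0.23 over the 27 members and -0.03 over all genes. These counts describe members that passed the filter, and 1 of them, Tnfsf10, passed it through the controls alone.

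All 5 calls held without control replicate 1, when 14 members and 29.8% of all genes tested were called. Without control replicate 2, and likewise without control replicate 3, Cd27 was the 1 member called, against 0.942% and 1.73% of all genes. Without either knockout replicate limma called 0 members, with 7 (without knockout replicate 1) and 5 (without knockout replicate 2) at an unadjusted p under 0.05. Over all genes these fits called 0.0594% and 0%, and the lone knockout library was then assumed to vary like the controls.

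**Figure D1:**
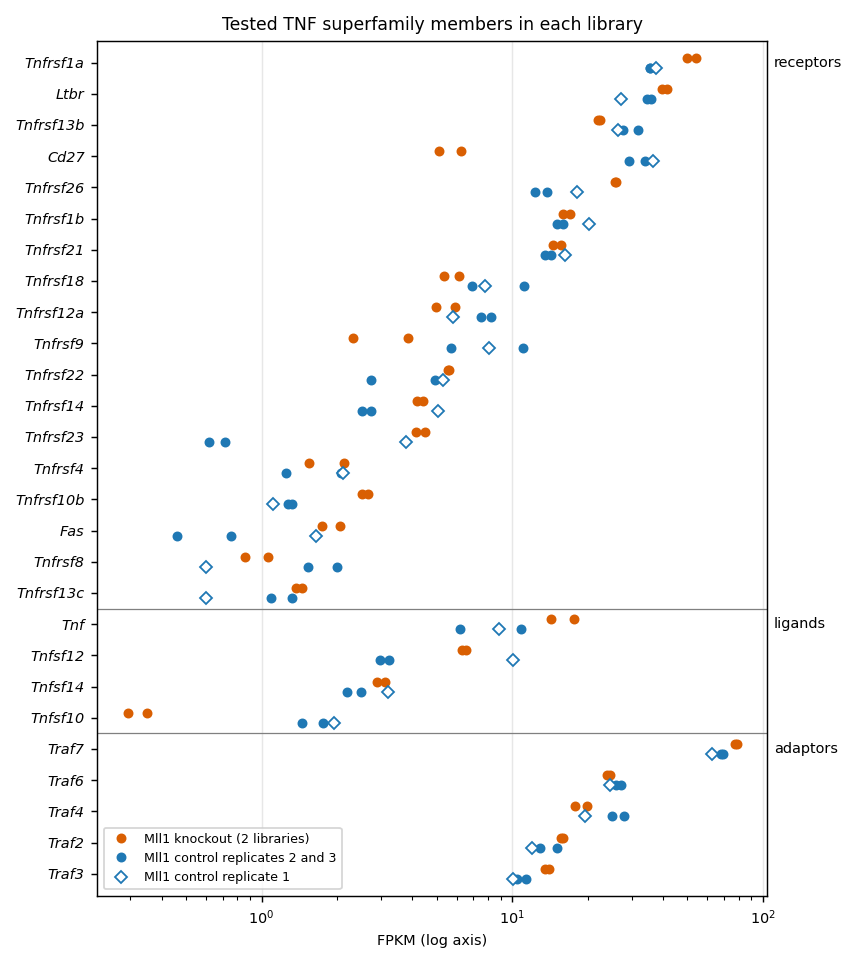
FPKM (log axis) of the 27 tested members in each library, with receptors, ligands and adaptors in separate blocks. Orange points are the 2 Mll1 knockout libraries, blue points control replicates 2 and 3, and open diamonds control replicate 1. Cd27 and Tnfsf10 lie far to the left of their controls, and in Fas and Tnfrsf23 the diamond lies near the knockouts.

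For the called members with an entry in the RefSeq promoter table, the 250 bases before the annotated start are shown, because MLL1 binds CG dinucleotides. CG is in capitals, the build is GRCm38.p6, and each is written 5′ to 3′ on the strand of its gene. Cd27 is at chr6:125237028-125237277 on the minus strand, Tnfsf10 at chr3:27316827-27317076 on the plus strand and Tnfrsf1a at chr6:125349473-125349722 on the plus strand.
Cd27: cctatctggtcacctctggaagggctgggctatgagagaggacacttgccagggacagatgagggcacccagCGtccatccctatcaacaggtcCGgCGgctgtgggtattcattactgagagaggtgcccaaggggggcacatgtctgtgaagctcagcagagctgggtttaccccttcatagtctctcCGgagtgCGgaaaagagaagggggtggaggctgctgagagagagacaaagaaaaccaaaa
Tnfsf10: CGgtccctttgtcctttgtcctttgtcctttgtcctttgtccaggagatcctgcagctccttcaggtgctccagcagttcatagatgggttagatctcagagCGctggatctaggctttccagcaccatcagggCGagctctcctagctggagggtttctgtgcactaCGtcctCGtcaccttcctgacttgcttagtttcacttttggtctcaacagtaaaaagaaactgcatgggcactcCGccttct
Tnfrsf1a: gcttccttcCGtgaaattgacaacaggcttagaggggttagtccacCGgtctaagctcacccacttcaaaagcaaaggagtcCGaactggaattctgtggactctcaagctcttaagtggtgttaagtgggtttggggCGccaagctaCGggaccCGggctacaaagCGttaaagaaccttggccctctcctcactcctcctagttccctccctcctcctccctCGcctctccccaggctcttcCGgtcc
The windows of Cd27 and Tnfsf10, which fell, hold 5 and 6 CG, and that of Tnfrsf1a, which rose, holds 9. The median over 32851 promoters of this length was 6, with quartiles of 2 and 16, so all 3 lie between the quartiles. Over 43 promoters of the 39 members with an entry the median was 8, and the highest count was 49, in Traf3. Other short motifs were searched on both strands. The kB-type motif, GGG and TTTCC with any 2 bases between them, was in 4 of the 43 member promoters (9.3%), 1 each of Ltb, Tnfrsf25, Tnfrsf9 and Traf3, and in 1.41% of all promoters. The Sp1-type GGGCGG was in 46.5% of member promoters and 32.7% of all, and TATAAA in 16.3% and 12.4%. CCAAT was in 16.3% and 33.8%, the RUNX-type TGTGGT in 11.6% and 14% and the ETS-type ACTTCC in 18.6% and 19.7%. None of these motifs other than CG was in the windows of the 3 genes printed, which says only that these letters are not there.

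Cd27, the costimulatory receptor of lymphocytes that also marks early progenitors, had the largest change of the tested members. It stood at 6.27 and 5.12 FPKM in the knockout libraries and at 36.4, 33.7 and 29.2 FPKM in the controls. The groups were far apart: the mean was 5.69 ± 0.812 FPKM (SD, n = 2) in the knockouts and 33.1 ± 3.63 FPKM (SD, n = 3) in the controls, which is 5.81-fold lower in the knockouts. The log2 change was -2.35 (SE 0.133, limma adjusted p = 0.0044). Its ligand gene Cd70 was listed at 0 in both knockouts and in control replicates 2 and 3, and at 0.0396 FPKM in control replicate 1. Cd27 lies inside the span of Vamp1, which runs on the opposite strand without sharing exons in GENCODE M21. Vamp1 stood at 2.79 and 3.17 FPKM in the knockouts and at 5.58, 4.74 and 3.92 FPKM in the controls (log2 change -0.52, adjusted p = 0.0973 in limma). It was well below Cd27 in the controls and nearer to Cd27 in the knockouts. A small microRNA gene, Mir8113, shares exon bases with Cd27 on the same strand. Of the 8 progenitor markers, Flt3 and Cd34, surface markers of early progenitors, fell as well. Fcgr3, Spi1 and Mpo rose, and Kit, Cebpa and Myb were not called. Flt3 stood at 9.51 and 7.69 FPKM in the knockouts and at 93.3, 96.3 and 83.5 FPKM in the controls (limma adjusted p = 0.00362), and the part of the progenitor markers in the value of Cd27 was not tested.

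Cd27 is a close neighbour of Ltbr and Tnfrsf1a on chromosome 6. Cd27 was lower in the knockouts, while Ltbr and Tnfrsf1a had positive log2 changes. Tnfrsf1a encodes TNFR1, the widely expressed death-domain receptor of TNF, and was the highest of the receptors by mean FPKM. It stood at 54.0 and 49.98 FPKM in the knockouts and at 37.6, 35.6 and 35.6 FPKM in the controls. The groups did not overlap, with a 1.43-fold higher mean in the knockouts and a log2 change of 0.51 (SE 0.075, limma adjusted p = 0.025). Ltbr, the receptor of lymphotoxin and LIGHT, stood at 39.5 and 41.6 FPKM in the knockouts and at 27.2, 35.8 and 34.4 FPKM in the controls. Both knockouts lay above the controls, but Ltbr was not called (log2 change 0.32, adjusted p = 0.192 in limma). Among the coding neighbours of this stretch, Tapbpl stood at 10.9 and 12.0 FPKM in the knockouts and at 10.1, 11.0 and 10.5 FPKM in the controls (adjusted p = 0.453 in limma). Scnn1a, between Ltbr and Tnfrsf1a, stood at 1.43 and 1.62 FPKM in the knockouts and at 0.744, 0.488 and 0.476 FPKM in the controls (adjusted p = 0.056 in limma).

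Tnf, the founding ligand of the family, was the highest ligand by mean FPKM and was not called. It stood at 14.3 and 17.6 FPKM in the knockouts and at 8.82, 6.20 and 10.8 FPKM in the controls. The groups did not overlap, with a 1.85-fold higher mean in the knockouts, and limma gave a log2 change of 0.84 with an adjusted p of 0.0852. The other TNF receptor gene, Tnfrsf1b (TNFR2, which has no death domain), averaged 16.5 ± 0.823 FPKM (SD, n = 2) in the knockouts and 17.1 ± 2.71 FPKM (SD, n = 3) in the controls. Its groups overlapped, and the unadjusted 95% interval of its log2 change ran from -0.40 to 0.32. The change of Tnfrsf1a was not tested against that of Tnfrsf1b. The lymphotoxin genes Ltb and Lta, which lie on either side of Tnf on chromosome 17, were under the filter: Ltb reached at most 0.86 FPKM and Lta at most 0.239 FPKM in any library.

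In the TRAIL axis, the ligand and its death receptor went in opposite directions. Tnfsf10, which encodes TRAIL, stood at 0.35 and 0.293 FPKM in the knockouts and at 1.95, 1.75 and 1.45 FPKM in the controls. No library overlapped, and the mean was 5.35-fold lower in the knockouts, with a log2 change of -1.04 on the FPKM + 1 scale (SE 0.148, limma adjusted p = 0.0235). With a pseudocount of 0.1 the log2 change was -2.10, and with one of 5 it was -0.34. Tnfsf10 passed the filter through the controls alone, where it is high. Without a filter on low values its adjusted p was 0.0433 in limma. Tnfrsf10b, the death-domain TRAIL receptor of the mouse and a known p53 target, stood at 2.52 and 2.66 FPKM in the knockouts and at 1.11, 1.33 and 1.28 FPKM in the controls. Both knockouts were about the same height above the controls, 2.09-fold by the means, with a log2 change of 0.68 (SE 0.121, limma adjusted p = 0.0365). Without a filter on low values, when more genes were tested, its adjusted p was 0.0823, and over the alternatives that tested it the adjusted p ran from 0.0188 to 0.309. Both genes are low, and the number of reads behind their values is unknown.

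**Figure D2:**
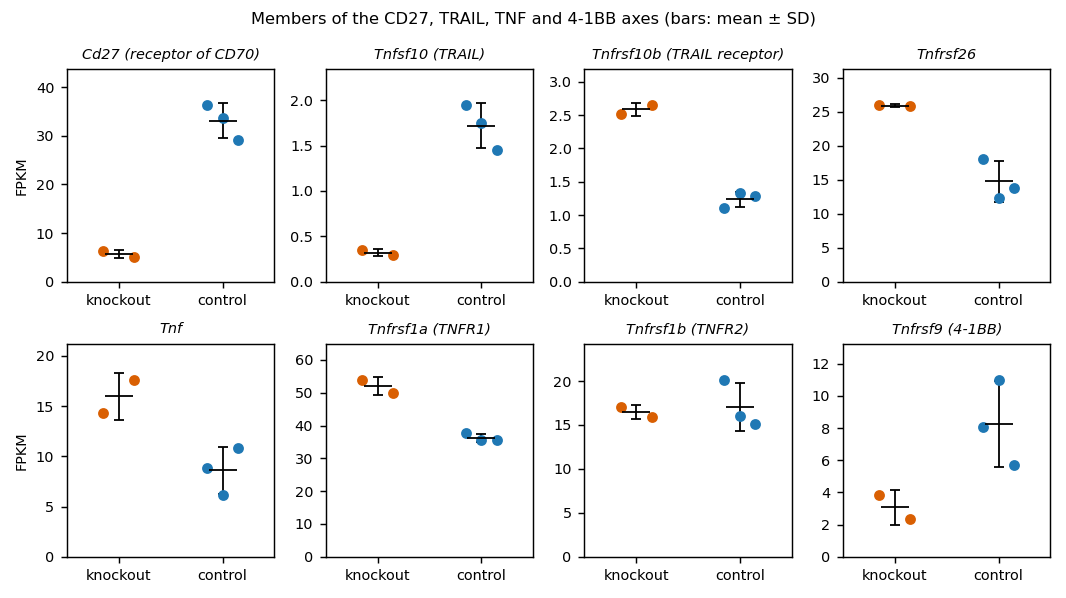
FPKM (linear axes from 0) of 8 members in the knockout (orange, left) and control (blue, right) libraries, with mean and SD. Cd27 and Tnfsf10 are lower and Tnfrsf10b, Tnfrsf26 and Tnfrsf1a higher in the knockouts; Tnf and Tnfrsf9 do not overlap between groups but were not called, and Tnfrsf1b overlaps.

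A further group of receptors related to the TRAIL receptors lies side by side on mouse chromosome 7: Tnfrsf26, Tnfrsf22 and Tnfrsf23, the last 2 known as decoy TRAIL receptors without a death domain. In all 3 genes both knockouts lay above every control, as in 22.9% of all genes tested, and Tnfrsf26 was called. Tnfrsf26 stood at 26.0 and 25.8 FPKM in the knockouts and at 18.1, 12.4 and 13.8 FPKM in the controls, a log2 change of 0.79 (SE 0.165, limma adjusted p = 0.0495). This call is close to the threshold: the adjusted p was 0.0558 with median-ratio scaling, 0.0565 after quantile normalization and 0.0548 without an intensity trend, and it ran from 0.00627 to 0.309 over all alternatives. Tnfrsf22 stood at 5.54 and 5.62 FPKM in the knockouts and at 5.30, 2.73 and 4.92 FPKM in the controls, so the gap to the nearest control was small (adjusted p = 0.412 in limma). Tnfrsf23 stood at 4.12 and 4.47 FPKM in the knockouts and at 3.78, 0.716 and 0.62 FPKM in the controls (log2 change 1.16, adjusted p = 0.209 in limma). Control replicate 1 was thus 5.66-fold above the mean of the other controls for Tnfrsf23, near the knockout level. Tnfrsf26 and Tnfrsf23 share exons with E230032D23Rik on the opposite strand, and the use of strand in the counting is not given in the sources used here, so reads of that gene may enter both values. Of the coding genes on either side of the 3, Osbpl5 fell, with 2.38 and 2.28 FPKM in the knockouts and 5.11, 5.04 and 3.84 FPKM in the controls (log2 change -0.76, limma adjusted p = 0.0405). Cars stood at 39.6 and 40.4 FPKM in the knockouts and at 35.4, 82.9 and 78.7 FPKM in the controls, and limma did not call it (adjusted p = 0.357).

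**Figure D3:**
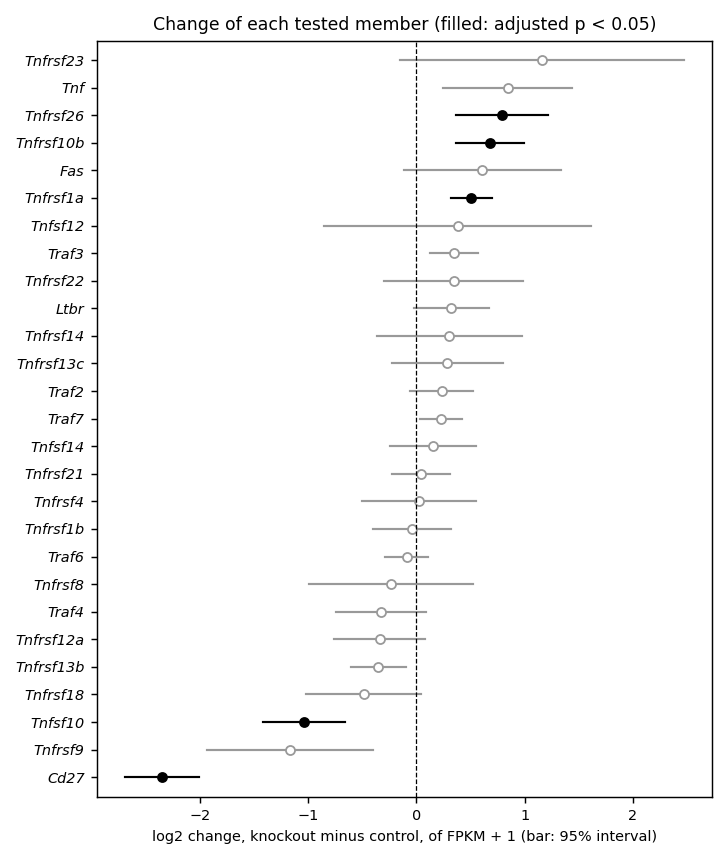
Log2 change (knockout minus control, FPKM + 1) of the 27 tested members, in order of size, with the unadjusted 95% interval from limma; filled black points were called. Tnfrsf23, at the top, has an interval that includes 0, while Cd27 lies at -2.35.

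Fas, the death receptor for FasL, and 3 other members had a control replicate 1 that was more than 1.5 times both other controls. Fas stood at 1.74 and 2.05 FPKM in the knockouts and at 1.66, 0.755 and 0.46 FPKM in the controls. Both knockouts were above all controls by a narrow margin over control replicate 1, and Fas was not called (log2 change 0.61, SE 0.284, limma adjusted p = 0.227). Without control replicate 1 the log2 change was 0.85 with an adjusted p of 0.0257, in a range of 0.0257 to 0.60 over the alternatives that tested it. Its ligand gene Fasl reached at most 0.117 FPKM in any library. Tnfsf12, the ligand TWEAK, stood at 6.32 and 6.54 FPKM in the knockouts and at 10.1, 2.97 and 3.23 FPKM in the controls, and Tnfrsf14, the receptor HVEM, stood at 4.18 and 4.42 FPKM in the knockouts and at 5.04, 2.72 and 2.52 FPKM in the controls. In both, control replicate 1 held the highest value of all 5 libraries. Neither was called with all libraries (limma adjusted p = 0.642 and 0.488). Fas, Tnfsf12, Tnfrsf14 and Tnfrsf23 were grouped by a high control replicate 1, so leaving it out raises their change by construction. In that fit 29.8% of all genes tested were called. Without control replicate 1, Tnfsf12 had a log2 change of 0.86 (adjusted p = 0.00864), Tnfrsf14 of 0.55 (adjusted p = 0.0202) and Tnfrsf23 of 1.67 (adjusted p = 0.00429) in limma. Over the alternatives that tested them the adjusted p reached 0.905 for Tnfsf12, 0.775 for Tnfrsf14 and 0.55 for Tnfrsf23, and it was lowest without control replicate 1. Of the neutrophil markers, S100a8, S100a9, Camp, Ngp, Ltf and Lcn2 were also higher in control replicate 1 than in both other controls, Mmp8 was lower and Cxcr2 lay between them. Their part in these values was not tested. The row named Tnfsf12 carries a gene ID that GENCODE M21 calls Tnfsfm13 and that overlaps Tnfsf13, so it need not measure Tnfsf12 alone. The opposite pattern was found in Tnfrsf8 (CD30), at 0.859 and 1.06 FPKM in the knockouts and 0.603, 1.99 and 1.54 FPKM in the controls, and in Tnfrsf13c, the receptor for BAFF, at 1.46 and 1.38 FPKM in the knockouts and 0.599, 1.09 and 1.32 FPKM in the controls. Neither was called (limma adjusted p = 0.645 and 0.395).

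**Figure D4:**
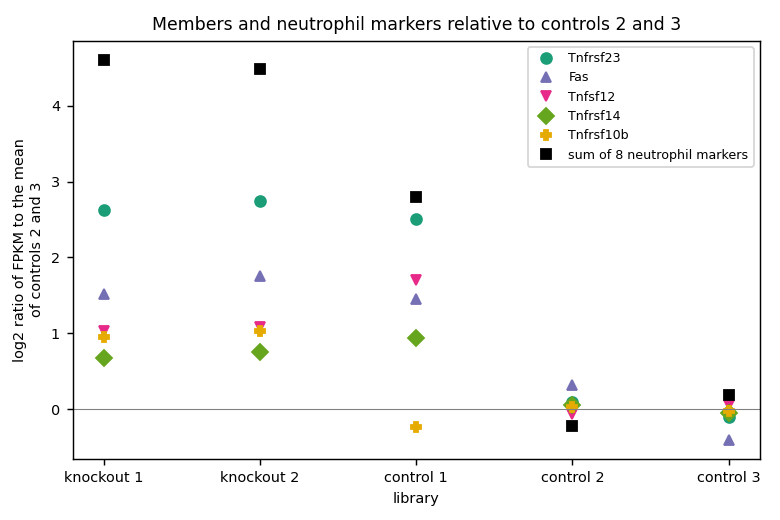
Log2 ratio of each library's FPKM to the mean of control replicates 2 and 3, for 5 members (coloured points) and for the sum of 8 neutrophil markers (black squares). Control replicate 1 lies near or above the knockouts in Tnfrsf23, Fas, Tnfsf12 and Tnfrsf14 but not in Tnfrsf10b, and the neutrophil sum of control replicate 1 lies between the knockouts and the other controls.

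Costimulatory receptors other than Cd27 were not called. Tnfrsf9, which encodes 4-1BB, stood at 3.84 and 2.32 FPKM in the knockouts and at 8.05, 11.0 and 5.69 FPKM in the controls. Its mean was 2.68-fold lower in the knockouts without overlap, with a log2 change of -1.17 and a limma adjusted p of 0.0735. Tnfrsf18, which encodes GITR, stood at 6.14 and 5.34 FPKM in the knockouts and at 7.78, 11.1 and 6.88 FPKM in the controls (adjusted p = 0.194 in limma). Its neighbour Tnfrsf4, which encodes OX40, overlapped between groups, with means of 1.84 ± 0.413 FPKM (SD, n = 2) in the knockouts and 1.81 ± 0.484 FPKM (SD, n = 3) in the controls. The ligands of these receptors were low: Tnfsf9 reached at most 0.375 FPKM, Tnfsf4 at most 0.885 FPKM and Tnfsf18 was listed at 0 in every library. Tnfrsf18 shares exons with a gene on the opposite strand.

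Tnfrsf13b, which encodes TACI, a receptor for BAFF and APRIL known from B cells, was among the highest receptors. It stood at 22.1 and 22.4 FPKM in the knockouts and at 26.5, 31.9 and 27.7 FPKM in the controls. The knockouts lay below all controls, 1.29-fold by the means, and limma gave a log2 change of -0.35 with an adjusted p of 0.0907. The BAFF gene Tnfsf13b stayed at or under 0.0973 FPKM in every library, and of the B cell markers, Pax5 was listed at 0 and Ms4a1 reached at most 0.0111 FPKM. Tnfrsf12a, the TWEAK receptor, averaged 5.43 ± 0.675 FPKM (SD, n = 2) in the knockouts and 7.18 ± 1.22 FPKM (SD, n = 3) in the controls, with overlap (adjusted p = 0.237 in limma). Tnfrsf21, the death-domain receptor DR6, overlapped too, and the unadjusted 95% interval of its log2 change ran from -0.22 to 0.31. Tnfsf14, which encodes LIGHT, the ligand of HVEM and of the lymphotoxin receptor, averaged 3.002 ± 0.156 FPKM (SD, n = 2) in the knockouts and 2.62 ± 0.516 FPKM (SD, n = 3) in the controls (adjusted p = 0.553 in limma).

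Of the 7 TRAF adaptors, 5 were tested and limma called 0, with 2 at an unadjusted p under 0.05. Over all genes, 3511 of the 11780 tested were at such a p. Traf7, the highest of all members, stood at 77.2 and 78.6 FPKM in the knockouts and at 62.6, 69.0 and 67.8 FPKM in the controls (log2 change 0.23, adjusted p = 0.126 in limma). Traf3, which restrains the alternative NF-kB pathway, stood at 14.0 and 13.6 FPKM in the knockouts and at 10.1, 10.4 and 11.4 FPKM in the controls. Both knockouts lay above all controls, and limma gave a log2 change of 0.35 with an adjusted p of 0.067, or 0.0491 with median-ratio scaling and 0.0394 to 0.402 over all alternatives. Traf2, the adaptor of TNFR1 and TNFR2, stood at 15.9 and 15.6 FPKM in the knockouts and at 12.0, 15.1 and 12.9 FPKM in the controls (adjusted p = 0.244 in limma). Traf6, which also serves Toll-like and IL-1 receptors, stood at 23.9 and 24.6 FPKM in the knockouts and at 24.6, 25.9 and 27.2 FPKM in the controls (adjusted p = 0.481 in limma). For Traf6 the upper knockout value lay just below the lowest control. Traf4 averaged 18.8 ± 1.504 FPKM (SD, n = 2) in the knockouts and 24.1 ± 4.17 FPKM (SD, n = 3) in the controls, with overlap. Traf7 shares exon bases with Rab26 on the same strand and Caskin1 on the opposite strand.

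The other 22 members were under the filter and were not tested. Tnfsf11, the osteoclast factor RANKL, stood at 0.648 and 0.898 FPKM in the knockouts and at 0.268, 0.126 and 0.043 FPKM in the controls, and Eda2r, a receptor for ectodysplasin and a known p53 target in human cells, stood at 0.422 and 0.563 FPKM in the knockouts and at 0.281, 0.245 and 0.23 FPKM in the controls. In both, the knockouts were the higher libraries, at under 1 FPKM. Traf1 stood at 0.133 and 0.0929 FPKM in the knockouts and at 0.311, 0.229 and 0.193 FPKM in the controls, the lowest values being those of the knockouts. Traf5, Tnfrsf25, Ngfr, Tnfrsf17, Tnfsf8, Tnfrsf11a, Tnfsf15, Cd40, Cd40lg and Tnfrsf19 reached at most 0.345 FPKM in any library. Tnfrsf11b was listed at 0 throughout. Cd40, the costimulatory receptor of B cells and macrophages, had 0.0177 and 0.0178 FPKM in the knockouts, and was listed at 0 in all 3 controls. Tnfsf11, Eda2r, Traf1 and Cd40 were picked for description after their values were seen. In Ngfr both knockouts also lay below all controls, and in Tnfsf13b above them, at very low values. Of all genes tested, 22.9% had both knockouts above all controls and 29.4% had both below.

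The genes downstream of these receptors were taken in 4 lists, to be read against the 9.79% of all genes tested that were called. Of 38 genes of NF-kB signalling, all tested, limma called 1 higher and 0 lower, with 3 and 1 at an unadjusted p under 0.05. Over all genes, 3511 of the 11780 tested were at such a p. The median log2 change of the NF-kB list was 0.07, against -0.03 over all genes. The 1 called was Ikbke, an IKK-related kinase gene, with 16.5 and 16.3 FPKM in the knockouts and 10.6, 10.6 and 9.69 FPKM in the controls (log2 change 0.62, adjusted p = 0.0191 in limma). The NF-kB subunit genes Nfkb1, Nfkb2, Rela and Relb had log2 changes between -0.23 and 0.16, with adjusted p between 0.367 and 0.683 in limma. The NF-kB feedback genes Nfkbia and Tnfaip3 varied among the controls. Nfkbia, the inhibitor IkB alpha, stood at 105 and 109 FPKM in the knockouts and at 53.3, 96.8 and 130 FPKM in the controls. Tnfaip3, the deubiquitinase A20, stood at 10.2 and 11.8 FPKM in the knockouts and at 6.16, 10.6 and 15.4 FPKM in the controls. In both the knockouts lay inside the control range, and control replicate 1 was the lowest of all libraries. Birc3, an inhibitor of apoptosis, and Ripk1, the kinase at TNFR1, had adjusted p of 0.434 and 0.0806 in limma.

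Of 24 tested genes of death receptor signalling, 2 rose and 3 fell, with a median log2 change of 0.01. Casp8, the initiator caspase of death receptors, fell to 35.4 and 36.8 FPKM in the knockouts, against 44.3, 46.2 and 45.5 FPKM in the controls (log2 change -0.32, adjusted p = 0.0488 in limma). Casp6 fell to 8.203 and 8.215 FPKM in the knockouts, against 19.0, 15.4 and 13.6 FPKM in the controls (adjusted p = 0.0336 in limma). Cradd, a death-domain adaptor, fell to 2.30 and 2.57 FPKM in the knockouts, against 4.87, 6.98 and 5.16 FPKM in the controls (adjusted p = 0.0351 in limma). Dedd2, a death effector domain gene, rose to 34.4 and 30.9 FPKM in the knockouts, against 21.4, 19.999 and 18.4 FPKM in the controls (log2 change 0.68, adjusted p = 0.0235 in limma). The adaptor gene Fadd (adjusted p = 0.481) and Cflar, which encodes the caspase-8 inhibitor FLIP (adjusted p = 0.565), were not called in limma.

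Of 19 genes of JNK and p38 signalling, 3 rose and 3 fell, with a median log2 change of -0.02. Mapk13, which encodes p38 delta, rose to 16.7 and 18.1 FPKM in the knockouts, against 6.22, 5.06 and 4.93 FPKM in the controls (log2 change 1.53, adjusted p = 0.00826 in limma). Mapkapk3, a kinase activated by p38, rose with a log2 change of 0.73, and Map4k5 with one of 0.47. Map2k6, an activator of p38, fell with a log2 change of -0.95, Map4k4 with -0.79 and Mapk8, which encodes JNK1, with -0.47. Members of the p38 branch were thus called in both directions.

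Of 17 tested relatives and ligand-processing genes, 2 rose and 1 fell, with a median log2 change of 0.01. Adam17, the protease that sheds TNF and its receptors from the cell surface, fell to 42.9 and 41.5 FPKM in the knockouts, against 58.3, 56.8 and 52.7 FPKM in the controls (log2 change -0.40, adjusted p = 0.0429 in limma). Rhbdf2, the inactive rhomboid iRhom2 that carries ADAM17 to the surface, rose to 16.4 and 14.7 FPKM in the knockouts, against 6.62, 7.59 and 9.42 FPKM in the controls (log2 change 0.91, adjusted p = 0.0332 in limma). Tnfaip2, a TNF-induced gene, rose with a log2 change of 0.59 (adjusted p = 0.0251 in limma). These list counts rest on single libraries. Without control replicate 1, calls higher and lower were 3 and 4 for NF-kB, 4 and 6 for death receptor signalling, 4 and 7 for JNK and p38 and 3 and 7 for relatives, when 29.8% of all genes tested were called (1398 higher and 2118 lower). Without control replicate 2 or 3 the 1 call left in the 4 lists was higher and in JNK and p38 signalling, and without either knockout replicate limma called 0, with 1693 (without knockout replicate 1) and 1669 (without knockout replicate 2) of all genes tested at an unadjusted p under 0.05.

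**Figure D5:**
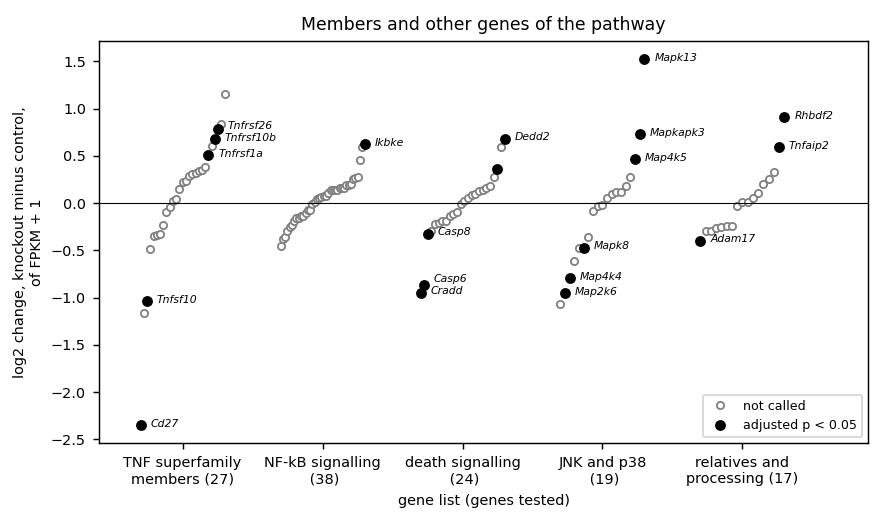
Log2 change (knockout minus control, FPKM + 1) of each tested gene in 5 lists, ordered by size within a list; black points were called and are named, but for 1 in death signalling. Calls lie on both sides of 0 in each list but that of NF-kB signalling, whose 1 call, Ikbke, is above it.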

How the data were processed

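RNA of 5 sorted samples was made into libraries with a stranded mRNA kit, as the labels state. The authors deposited 1 FPKM value per Ensembl gene and library. CASAVA 1.8.2, GSNAP, SAMtools, Cuffdiff and the build mm9 are listed, without roles, per the submitters' processing notes. The sources used here name no annotation, no treatment of multiply mapped reads and no use of strand. In 16 genes a library held 999999999, which is no FPKM, and these genes were left out; no member was among them. Paralogs with near-identical stretches may share reads.

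Groups followed the sample titles. The members and gene lists were chosen with earlier results of these data known. Genes reaching 1 FPKM in 2 or more libraries were tested on log2(FPKM + 1) with limma 3.58.1 (R 4.3.3), knockout minus control, with an intensity trend and Benjamini-Hochberg adjustment over 11780 genes. All adjusted p-values are from this fit unless another setting is named. The fit was tested on 20 simulated data sets of this comparison, each with 200 of 11780 genes changed. There it recovered 70.6% of log2 changes of 1 and 90.4% of 2, with 5.46% false calls. In the measured data, the median absolute log2 difference of control replicate 1 from the mean of the other controls was 0.221 over all genes. It was 0.114 for control replicate 2 against 3, and 0.073 for one knockout against the other. The recovery and false-call rates describe the simulated data alone. They do not give the share of false calls for libraries that differ in this way.

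Values were given for every tested member that was called or whose knockouts lay outside the control range, and for Cd27, Tnfrsf10b and Fas. In the other lists they were given for up to 6 called genes and a fixed set of core genes. The 4 pathway lists and 10 marker lists (progenitor, neutrophil, monocyte and macrophage, dendritic, T, B, NK, mast cell and basophil, erythroid, megakaryocyte) are described by counts. Single values of some list genes are not reported here. Tnfsf12, Tnfrsf14, Tnfrsf8, Tnfsf11, Eda2r, Traf1, Cd40, Flt3 and the neighbouring genes were added after their values were seen. All 49 member IDs matched GENCODE M21 (GRCm38), used for symbols, overlaps and neighbours; promoter sequences are from RefSeq (GRCm38.p6). Alternatives covered pseudocount, filter, scaling, empirical Bayes step, replicate block, threshold and each library left out.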

Additional observations from a re-analysis of the deposited data

How the results depend on the processing

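Numbers of calls are given as higher and lower in the knockouts, for the TNF superfamily members (3 and 2), NF-kB signalling (1 and 0), death signalling (2 and 3), JNK and p38 signalling (3 and 3), relatives and processing (2 and 1) and all genes (450 and 703). With no filter on low values, 1 member was higher, 0 death signalling and 0 JNK and p38 genes were lower, relatives had 1 and 0, and all genes 238 and 259; among genes averaging 5 FPKM or more, 1 member was lower. Median-ratio scaling and quantile normalization left 0 relatives lower, and all genes were 597 and 621 with median-ratio scaling; without an intensity trend death signalling had 1 higher and relatives 0 lower. At an adjusted p under 0.01 the members had 0 and 1, JNK and p38 genes 1 and 0, the other lists 0, and all genes 34 and 55. At 0.1 the members had 5 and 4, NF-kB 3 higher, JNK and p38 genes 5 lower, relatives 4 lower, and all genes 1021 and 1414. With at least a 2-fold change as well, the members had 0 higher, NF-kB 0, death signalling 0 and 0, JNK and p38 genes 1 and 0, relatives 0 and 0, and all genes 139 and 210. The counts lost at stricter limits follow from the limits themselves. Among genes averaging 5 FPKM or more, the lower member lost was Tnfsf10, which was not tested there. For the other changes in count the cause was not tested.

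With the replicate number as a block, the members had 0 higher and 1 lower (Cd27), the 4 lists 0 and 0, and all genes 12 and 43, with 2537 genes at an unadjusted p under 0.05. Deviations of samples with the same number correlated at 0.037 and 0.0123 over genes. With 2 knockouts the deviations of one mirror those of the other, so these values cannot show whether samples with the same number were paired. The labels do not state a pairing, and the block leaves few degrees of freedom. Tnfrsf4 had a log2 change of -0.13 with the block, against 0.02.

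With each library left out in turn, the members had 0 to 9 higher and 0 to 5 lower, NF-kB 0 to 3 and 0 to 4, death signalling 0 to 4 and 0 to 6, JNK and p38 genes 0 to 4 and 0 to 7, relatives 0 to 3 and 0 to 7, and all genes 0 to 1398 and 0 to 2118. The highest counts came without control replicate 1. The sign turned in 3 members that were not called, Tnfrsf21 (-0.011 to 0.11), Tnfrsf1b (-0.12 to 0.08) and Tnfrsf4 (-0.13 to 0.17). Mll1 ranged from -0.51 to -0.29. The direction of the 5 called members held in every alternative in which they were tested. Their groups did not overlap, so leaving out a library could not have turned it. Tnfsf10 and Tnfrsf10b were not among the genes averaging 5 FPKM or more. Depth is unknown, so the precision of members under 1 FPKM cannot be given.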
